A study of Mus musculus with 6 samples.

Results

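The genes described here are Cish, the 7 numbered SOCS genes (Socs1 to Socs7) and the 2 STAT5 genes, Stat5a and Stat5b, in the left ventricle of mice given 2-methyl-2-thiazoline (2MT). The group was chosen by the difference between 2MT and saline hearts, in which Cish and Socs2 had the second and the sixth highest rise, and was filled up with their family and with STAT5. The platform's annotation gave these symbols to 14 probe sets, each with 1 symbol, so that all 10 genes were measured, out of 19938 genes named on the array. Tissue came from male C57BL/6 mice aged 10 weeks: 3 samples were labelled 2MT and 3 were labelled saline, with 1 Affymetrix array each. 2MT, a small thiazoline compound, was given subcutaneously at a dose of 50 mg/kg, hearts were taken after 4 h, and the study asked how the compound protects the heart. The protocol text carried by the saline samples gives neither their injection nor their time, and the labels do not say whether each sample was a separate animal, so the spread between samples may be technical.

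Cytokine and hormone receptors without kinase activity of their own, such as those for growth hormone, prolactin and interleukins, signal through Janus kinases (JAKs), which phosphorylate STAT transcription factors. STAT5A and STAT5B are the main STATs of growth hormone and prolactin. CIS, the product of Cish, and the SOCS proteins close the loop: several are induced by STATs, bind receptors or kinases through an SH2 domain, and recruit an elongin and Cullin-5 ubiquitin ligase through their SOCS box. Phosphorylation of STAT5 was not measured, and a transcript array reports none of it.

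STAT5 binds palindromes of the form TTCNNNGAA, which read the same on both strands. RefSeq windows of 300 bases (250 before to 50 after a transcript start, build GRCm38.p6) were at hand for 6 of the 10 genes, 8 windows in all, and 2 of the windows held the motif. These 2, of Cish and Socs3, are shown because they were the only ones with a match. No window was at hand for Socs2. The matches are in capitals. The Cish window lies at chr9:107296409-107296708 on the plus strand, the Socs3 window at chr11:117969317-117969616 on the minus strand.
Cish: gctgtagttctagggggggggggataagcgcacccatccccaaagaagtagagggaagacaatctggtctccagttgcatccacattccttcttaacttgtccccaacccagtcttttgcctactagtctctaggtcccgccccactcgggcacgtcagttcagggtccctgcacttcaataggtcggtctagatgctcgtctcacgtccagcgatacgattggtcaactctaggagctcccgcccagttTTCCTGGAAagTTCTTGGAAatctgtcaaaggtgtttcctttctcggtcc
Socs3: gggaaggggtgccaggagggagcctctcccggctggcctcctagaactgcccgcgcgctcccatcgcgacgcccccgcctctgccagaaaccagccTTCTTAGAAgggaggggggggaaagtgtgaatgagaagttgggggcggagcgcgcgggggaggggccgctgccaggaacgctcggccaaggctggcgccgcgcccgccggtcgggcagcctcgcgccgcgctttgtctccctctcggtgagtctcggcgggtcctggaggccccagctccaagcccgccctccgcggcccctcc
The Cish window held 2 matches, TTCCTGGAA from the first transcribed base and TTCTTGGAA from base 12, with 2 bases between them. The Socs3 window held 1, TTCTTAGAA, starting 154 bases before the transcript start used for that window. This match, at chr11:117969512-117969520, lies inside the annotated span of the gene, chr11:117966079-117970336, and not upstream of it. Of 32851 windows of this length, 8.30% held at least 1 match and 0.457% held 2 or more. The windows of Socs1, Socs4, Stat5a and Stat5b did not hold these letters. A match is a description of the sequence and says nothing of binding in these hearts.

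The values are log2 signals of probe sets, so a difference of 1 is a doubling of signal, and signals of different probe sets were not set against each other. Where a gene had several probe sets, the one with the highest mean over the 6 arrays was used, and a gene was tested if that mean reached 4.345, the median of all probe sets. All 10 genes were above this floor. A gene is said to have been called, or to have risen or fallen, where limma gave an adjusted p under 0.05 over all 10547 genes tested. Calls were made for 4.63% of those genes, 2.22% higher and 2.41% lower in 2MT. All 2MT arrays lay above all saline arrays in 11.1% of genes and below them in 10.1%. Cardiomyocyte markers averaged 12.54 to 12.57 on 2MT arrays and 12.52 on saline arrays, and all 4 adipocyte, 6 lymphocyte and 5 neutrophil markers with a probe set were under the floor. Saline 3 stood apart from the other arrays: the mean of the erythrocyte markers Alas2 and Bpgm was 5.77 to 6.08 in 2MT and 5.85, 5.76 and 6.92 in saline 1, 2 and 3.

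Of the 10 genes, 2 were called higher, Cish and Socs2, and 0 lower (limma, with 0 lower also at an unadjusted p under 0.05). The same 2 were the genes whose groups did not overlap with 2MT above, and 0 lay below. Since this contrast chose the genes, these counts and the medians and values that follow are a description. No p of a single gene is given, and nothing is read from these numbers against all genes tested. The median difference was 0.08 over the 10 genes, Cish and Socs2 included, and 0.04 over the other 8, beside 0.003 over all genes tested. The plot of signals by array shows Cish and Socs2 apart and the other 8 genes within the reach of both groups.

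**Figure D1:**
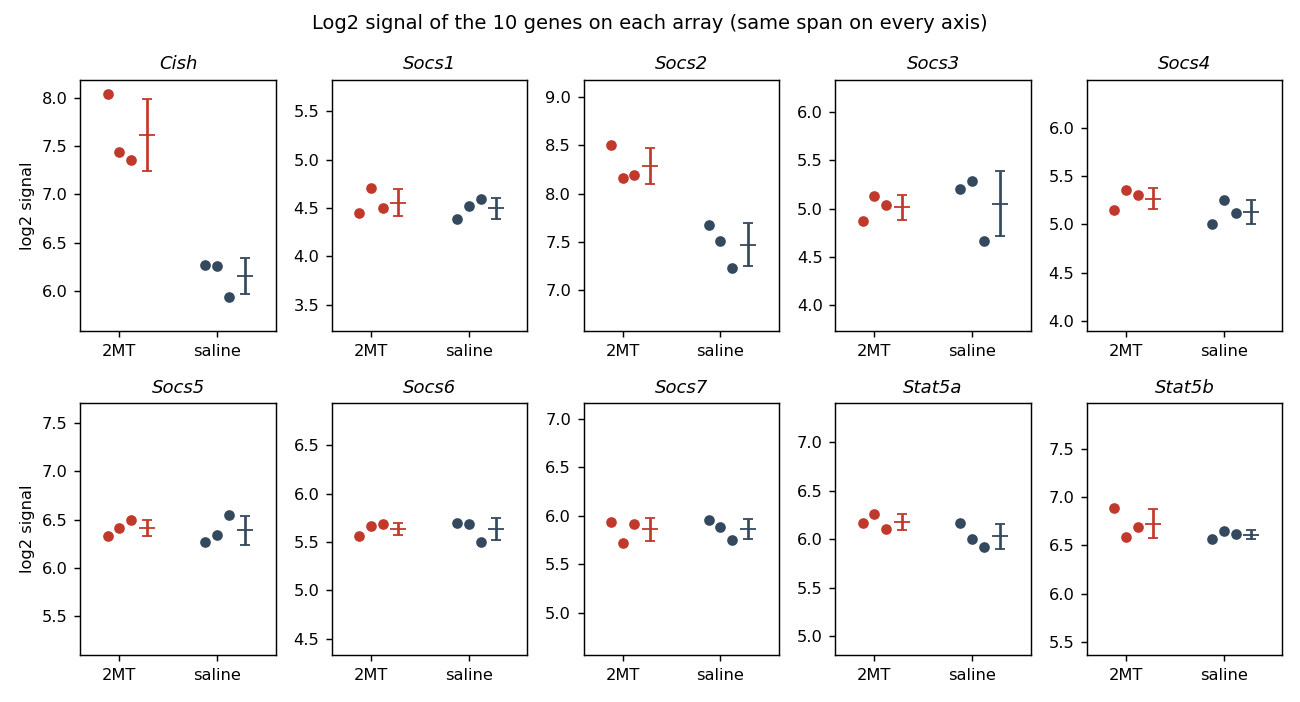
Log2 signal of each gene on the 3 2MT arrays (left, red) and the 3 saline arrays (right, blue), with the mean and SD beside the points and the same span on every vertical axis. Cish lay at 7.36 to 8.04 in 2MT and 5.94 to 6.27 in saline, Socs2 at 8.16 to 8.50 and 7.23 to 7.67, and the points of the other 8 genes overlapped between the groups.

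STAT5 stands upstream of the feedback genes. Stat5a had log2 signals of 6.17, 6.26 and 6.10 in 2MT and of 6.17, 6.00 and 5.92 in saline. The highest saline array equalled the middle 2MT array, and the difference was 0.15 ± 0.09 (SE, n = 3 each). Stat5b, its neighbour on the same chromosome and the form best known for growth hormone signalling in liver, had 6.89, 6.59 and 6.69 in 2MT and 6.56, 6.65 and 6.62 in saline. Array 2MT 1 was the highest, 2MT 2 lay inside the saline range, and the difference was 0.11 ± 0.08. Neither STAT5 gene was called.

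Cish had the second highest rise of all genes tested. Its log2 signals were 8.04, 7.44 and 7.36 in 2MT and 6.27, 6.26 and 5.94 in saline. The lowest 2MT array stood 1.09 above the highest saline array, and 2MT 1 stood above the other 2MT arrays. Means were 7.61 ± 0.37 in 2MT and 6.16 ± 0.19 in saline (SD, n = 3 each), a 2.74-fold difference (log2 difference 1.46 ± 0.14, SE). Without 2MT 1 the difference was 1.24, and without saline 3 it was 1.35. The gene's only probe set is 10588577.

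Socs2, whose product restrains growth hormone receptor signalling and whose loss in mice gives overgrowth, was measured by 2 probe sets. The brighter one, 10394674, had 8.50, 8.16 and 8.19 in 2MT and 7.67, 7.51 and 7.23 in saline, a 1.76-fold difference (0.81 ± 0.11, SE). The other, 10372069, had 5.96, 5.68 and 5.72 in 2MT and 5.28, 5.19 and 5.0 in saline, a 1.55-fold difference (0.63 ± 0.11). On both, the groups were apart, 2MT 1 was the highest array and saline 3 the lowest. Deviations of the 2 probe sets from their group means correlated at 0.99 over the 6 arrays, and the annotation assigns both to transcripts of 1 gene, so they are not separate evidence. Without saline 3 the difference on the brighter probe set was 0.69, the smallest with any 1 array left out.

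The inducible inhibitors of JAK kinases, Socs1 and Socs3, were not called. Socs1, an inhibitor of interferon signalling, had 4.45, 4.71 and 4.50 in 2MT and 4.38, 4.52 and 4.59 in saline, close to the floor, with a difference of 0.06 ± 0.11. Socs3, the feedback inhibitor of receptors that use gp130, had 4.87, 5.13 and 5.04 in 2MT and 5.20, 5.29 and 4.67 in saline on its brighter probe set, 10393449. Saline 3 was the lowest array there and gave Socs3 a saline SD of 0.34, above that of 99.0% of genes tested. The difference was -0.04 ± 0.14, and -0.23 without saline 3. The second probe set, 10383010, had 4.84, 5.01 and 5.04 in 2MT and 4.81, 4.78 and 4.83 in saline, with the groups 0.01 apart and a difference of 0.16 ± 0.10. The 2 probe sets of Socs3 thus gave opposite signs, and their deviations correlated at 0.13 over the 6 arrays.

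The remaining SOCS genes encode proteins with long amino-terminal regions. Socs4, linked like Socs5 to the EGF receptor, had 5.15, 5.35 and 5.30 in 2MT and 5.0, 5.25 and 5.12 in saline (difference 0.14 ± 0.10). Socs5 had 6.33, 6.41 and 6.50 in 2MT and 6.27, 6.34 and 6.55 in saline (0.03 ± 0.09). Socs7, which binds adaptor proteins and has been tied to insulin signalling, had 5.94, 5.72 and 5.92 in 2MT and 5.96, 5.88 and 5.75 in saline (-0.003 ± 0.09). In each of the 3 genes the groups overlapped.

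Socs6, whose product binds the KIT receptor and insulin signalling proteins, had 3 probe sets with unlike values. Probe set 10566668, the brightest, had 5.56, 5.66 and 5.68 in 2MT and 5.70, 5.69 and 5.50 in saline, a difference of 0.003 ± 0.09. Probe set 10460118, which the annotation gives the same transcripts, had 5.52, 5.41 and 5.30 in 2MT and 5.78, 5.53 and 5.58 in saline, so that 2MT lay below saline by a gap of 0.01 and the difference was -0.22 ± 0.10. The third, 10460116, was far under the floor at 1.32 to 1.43 in 2MT and 1.37 to 1.40 in saline. The difference of Socs6 thus depended on the probe set used.

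The plot of differences sets the 10 genes side by side. The other 8 genes ran from -0.04 to 0.15, and with any 1 array left out from -0.23 to 0.22. Over all genes tested the median size of a difference was 0.09. The sign of Socs1, Socs3, Socs5, Socs6 and Socs7 turned when single arrays were left out, so no direction is given for them. Stat5a, Stat5b and Socs4 had a higher mean in 2MT in every such fit, without being called. An uncalled difference does not show that a gene was the same in both groups.

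**Figure D2:**
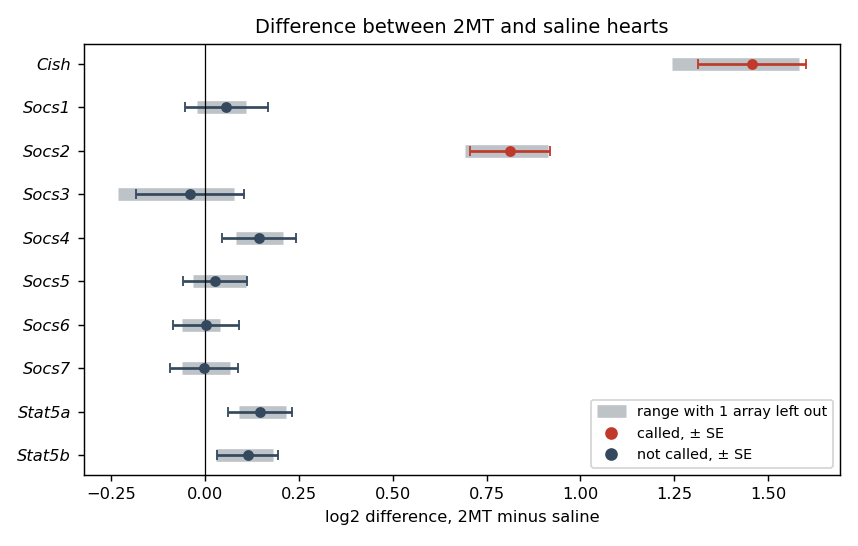
Log2 difference, 2MT minus saline, of each of the 10 genes with its SE (points and whiskers), and the range of the difference with any 1 of the 6 arrays left out (grey bars). Cish (1.46, bar from 1.24 to 1.58) and Socs2 (0.81, bar from 0.69 to 0.91) stand to the right, and the other 8 points lie between -0.04 and 0.15.

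The spread of these genes among arrays of 1 group does not use the contrast between groups. Cish had an SD of 0.37 among 2MT arrays, above that of 99.7% of genes tested, where the median SD was 0.08. That SD rests on 2MT 1 (8.04), since the other 2MT arrays were close together at 7.44 and 7.36. In saline its SD of 0.19 was above that of 87.8%. Socs2 had an SD of 0.19 in 2MT and 0.22 in saline, above 92.2% and 93.3% of genes, and in 2MT it too rests on 2MT 1 (8.50, with 8.16 and 8.19 on the other 2MT arrays). Deviations of Cish and Socs2 from their group means correlated at 0.89 over the 6 arrays, as a description, and 2.18% of genes tested had a higher correlation with Cish. Array 2MT 1 was the high one for both (0.43 for Cish, 0.22 for Socs2) and saline 3 was low for both (-0.22 and -0.24). The correlation was 0.87 to 0.96 with any 1 array left out and -0.06 over the 4 arrays left without both 2MT 1 and saline 3. With 2 arrays a group left, -0.06 is itself imprecise, so no correlation is shown apart from 2MT 1 and saline 3. Over all 6 arrays other pairs had values of a size like 0.89: with Socs2, Socs5 was at -0.92, Socs1 at -0.80 and Socs7 at 0.81, and with Cish, Socs5 was at -0.79 and Stat5b at 0.75. Of all genes tested, 93.4% had a higher correlation with Cish than Socs5 had, and 97.8% had a higher one with Socs2. The macrophage markers averaged 6.49, 6.32 and 6.37 in 2MT and 6.28, 6.35 and 6.54 in saline, highest on saline 3 and 2MT 1. Endothelial markers averaged 8.06, 7.90 and 7.92 in 2MT and 7.99, 7.98 and 7.85 in saline. Smooth muscle and pericyte markers averaged 7.23, 7.02 and 7.08 in 2MT and 7.15, 7.12 and 7.04 in saline. Like Cish and Socs2, both of these marker sets were highest in 2MT on 2MT 1 and lowest in saline on saline 3. Fibroblast markers averaged 7.10, 6.94 and 7.08 in 2MT, also highest on 2MT 1. In saline they averaged 6.973, 6.996 and 6.976, lowest on saline 1 but nearly level with saline 3. Cardiomyocyte markers averaged 12.545, 12.541 and 12.57 in 2MT, highest on 2MT 3. In saline they averaged 12.521, 12.52 and 12.5175, lowest on saline 3 by a small margin. The part of any of these markers, or of the erythrocyte markers, in the spread was not tested.

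**Figure D3:**
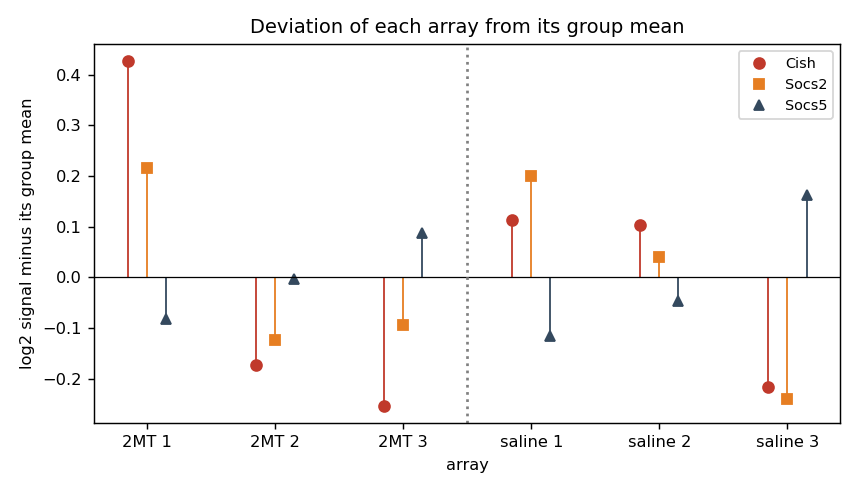
Log2 signal of Cish, Socs2 and Socs5 on each array minus the gene's own group mean, for the 2MT arrays (left of the dotted line) and the saline arrays (right). Cish and Socs2 are both above 0 on 2MT 1 and below it on saline 3, and Socs5 has the opposite sign on both.

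The genes with the profile most like Cish over the 6 arrays, among 10537 other genes tested, were Zeb1 (r = 0.992), Tmx1 (0.990), Jam2 (0.990) and Sec11a (0.990). Most like Socs2 were Plekhf1 (0.997), Pbx4 (0.992), Tcf4 (0.992) and Pip4k2a (0.990). With 3 arrays against 3 such values mainly follow the step between groups. Correlations of deviations from group means, which leave that step out, were 0.89 to 0.97 for the genes like Cish and 0.93 to 0.99 for those like Socs2. The choice by r over the 6 arrays also used these deviations, so their correlations are no separate check. Since the 8 genes were chosen by this likeness, their values are a description and are given with no p: the log2 difference between 2MT and saline was 0.12 ± 0.06 (SE) for Zeb1, nearest to Cish in shape, and 0.53 ± 0.10 for Plekhf1, nearest to Socs2.

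Around the 10 genes, 186 others of the JAK-STAT pathway were listed with earlier results of these data known, 171 had a probe set and 117 were tested. Of the 117, 10 were called higher and 10 lower, 17.1% beside 4.63% of all genes, and the median difference was 0.01. The lower calls include Myc, tested through its saline signal alone. Groups did not overlap in 23 of the 117 with 2MT above and in 21 with 2MT below, beside 11.1% and 10.1% of all genes tested. The count of higher calls was 4 without 2MT 1, 5 without 2MT 2, 3 without 2MT 3, 4 without saline 1 and 6 without saline 2, and the count of lower calls was 6 without saline 1. Without saline 3, 9 were called higher and 11 lower. In bulk tissue, fewer cells of a type and less RNA per cell cannot be told apart.

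At the top of the pathway, 2 of 25 ligand genes with a probe set were above the floor and 0 were called (limma, 0 also at an unadjusted p under 0.05). One of them, Il15, had 6.92, 7.36 and 7.16 in 2MT and 6.91, 6.89 and 7.16 in saline. Of 18 tested receptors 2 rose and 1 fell. Ghr, the growth hormone receptor, had 8.37, 8.45 and 8.54 in 2MT and 8.14, 8.17 and 8.26 in saline, apart by 0.11 at the closest, and rose by 0.26 ± 0.06 (SE, limma adjusted p = 0.023). Il10rb, a shared chain of the interleukin-10 family receptors, rose by 0.27 ± 0.07 (limma adjusted p = 0.027). Il4ra, the interleukin-4 receptor chain that signals through STAT6, had 5.61, 5.51 and 5.65 in 2MT and 6.33, 6.26 and 6.18 in saline and fell by 0.67 ± 0.08 (limma adjusted p = 0.00025). Il4ra was called with each array left out. Here and in what follows, the value in brackets after an array is limma's adjusted p without it. Ghr was not without 2MT 2 (0.086), 2MT 3 (0.15), saline 1 (0.095) or saline 2 (0.078), and Il10rb was not without 2MT 1 (0.066), 2MT 2 (0.094), 2MT 3 (0.13) or saline 1 (0.091). Il6st, which encodes gp130, was at 8.65 ± 0.02 in 2MT and 8.52 ± 0.09 in saline and Lifr at 7.50 ± 0.10 and 7.67 ± 0.17 (SD, n = 3 each), both uncalled, and Epor was under the floor.

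Of 3 tested Janus kinases 0 were called (limma, 1 at an unadjusted p under 0.05). Jak2, the kinase of the growth hormone receptor, had 6.82, 6.89 and 7.0 in 2MT and 7.05, 7.10 and 7.10 in saline, without overlap, and a difference of -0.18 ± 0.07 (SE, limma adjusted p = 0.18). Jak1 was at 8.86 ± 0.08 in 2MT and 8.92 ± 0.05 in saline, and Tyk2, near the floor, at 4.68 ± 0.22 and 4.47 ± 0.13 (SD, n = 3 each). Among 3 other STATs tested, Stat3, which serves receptors with gp130, fell by 0.25 ± 0.06 (SE), with 7.71, 7.76 and 7.67 in 2MT and 7.97, 7.97 and 7.96 in saline (limma adjusted p = 0.019). Every 2MT array lay below every saline array, and the call was lost without 2MT 1 (0.058), 2MT 3 (0.11), saline 1 (0.062) or saline 2 (0.058). Stat2 and Stat6 differed by 0.09 ± 0.13 and 0.04 ± 0.07, and Stat4 was under the floor.

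The ubiquitin ligase that SOCS box proteins recruit showed 0 calls among 8 tested genes (limma, 2 at an unadjusted p under 0.05). Elob and Eloc, the elongins that bind the SOCS box, differed by -0.02 ± 0.06 and 0.003 ± 0.06 (SE). Cul5, the scaffold, had 7.17, 7.25 and 7.23 in 2MT and 7.03, 7.02 and 7.11 in saline, without overlap, and a difference of 0.16 ± 0.06 (limma adjusted p = 0.19). Its RING partner Rnf7 differed by -0.08 ± 0.06.

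Of 22 other SOCS box genes tested, 4 rose and 1 fell, all members of the Asb and Spsb families. Asb18 rose by 0.51 ± 0.11 (SE), with 5.79, 5.97 and 5.86 in 2MT and 5.18, 5.27 and 5.63 in saline (limma adjusted p = 0.017). Asb5 rose by 0.34 ± 0.07 and Asb15 by 0.29 ± 0.07, and Asb2, which acts on filamins in muscle and is named here after its values were seen, by 0.19 ± 0.05. Spsb1, whose product targets inducible nitric oxide synthase, fell by 0.32 ± 0.08. Each lost its call with some arrays left out: Asb18 without 2MT 2 (0.094), 2MT 3 (0.071), saline 1 (0.080) or saline 2 (0.069), and Asb5 without 2MT 1 (0.072), 2MT 2 (0.071) or saline 2 (0.0502). Asb15 lost it without 2MT 1 (0.080), 2MT 2 (0.092), 2MT 3 (0.13), saline 1 (0.12) or saline 3 (0.059), and Spsb1 without 2MT 1 (0.11), 2MT 2 (0.14), saline 1 (0.068) or saline 2 (0.11). Asb2 stayed called only without 2MT 2 among the 6 such fits, and also lost its call under median centring (0.064) and cyclic loess (0.058).

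Among 13 tested inhibitors of other kinds 0 rose and 2 fell (limma, 3 in either direction at an unadjusted p under 0.05). Cblb, a ubiquitin ligase that damps receptor signalling, had 6.38, 6.42 and 6.26 in 2MT and 6.79, 6.89 and 6.69 in saline and fell by 0.44 ± 0.08 (SE, limma adjusted p = 0.0049), with a call whichever array was left out. Ptpn11, the phosphatase SHP2, fell by 0.29 ± 0.07 (limma adjusted p = 0.021), with the call lost without 2MT 2 (0.099), saline 1 (0.095) or saline 2 (0.072).

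Calls among known STAT5 targets other than the SOCS genes went both ways. The list was written with earlier results of these data known, so its share of calls is a description. It was not split by whether STAT5 raises or lowers a gene. Of 19 tested, 2 rose and 4 fell, 31.6% beside 4.63% of all genes, with a median difference of 0.03. The 4 include Myc, tested through its saline signal alone. Igf1, the growth hormone target in liver, had 6.24, 5.87 and 5.93 in 2MT and 6.01, 5.81 and 6.02 in saline, a difference of 0.07 ± 0.10 (SE, limma adjusted p = 0.81). Pim1, a kinase gene induced by cytokines, had 5.78, 5.85 and 6.14 in 2MT and 5.67, 5.56 and 5.68 in saline, without overlap and without a call (0.29 ± 0.10, limma adjusted p = 0.13). Bcl6, a repressor that STAT5 is known to lower, had 4.81, 4.94 and 5.49 in 2MT and 6.36, 6.07 and 6.21 in saline and fell by 1.13 ± 0.14 (limma adjusted p = 0.00038). The groups were well apart, though 2MT 3 lay above the other 2MT arrays. Its call held with each array left out.

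Myc was called lower, at 4.21, 4.27 and 3.99 in 2MT, all under the floor, and 5.70, 5.31 and 5.78 in saline. It was tested through its saline signal alone, so the size of its fall is not a measured one: the difference was -1.44 on the deposited scale and -0.93 with an offset of 16 added before log2. Sgk1 fell by 0.50 ± 0.10 (SE) and Hif1a rose by 0.46 ± 0.06. Mcl1, a survival gene, rose by 0.27 ± 0.07, and Id1 fell by 0.37 ± 0.08, both named after their values were seen. Myc was called whichever array was left out, but it passed the floor only through its saline signal, so these calls are a description. Hif1a was called whichever array was left out. Sgk1 was not without 2MT 2 (limma adjusted p = 0.052), Mcl1 not without 2MT 1 (0.11), 2MT 3 (0.17) or saline 1 (0.13), and Id1 not without 2MT 2 (0.10), 2MT 3 (0.11) or saline 1 (0.087). All of these genes answer to many other factors.

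Of 15 tested STAT3 targets 2 rose and 3 fell, 33.3% beside 4.63% of all genes, with a median of -0.17. This list too was written with earlier results of these data known. The called genes Myc (through its saline signal alone), Mcl1 and Il4ra are counted again here, as are the uncalled Pim1 and Osmr. Serpina3n, an acute phase gene, had 6.15, 6.66 and 6.29 in 2MT and 7.14, 7.21 and 6.78 in saline and fell by 0.68 ± 0.13 (SE, limma adjusted p = 0.0069), a call that held with each array left out. Vegfa rose by 0.39 ± 0.08, and its call was lost without 2MT 1 (0.062) or 2MT 3 (0.066).

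**Figure D4:**
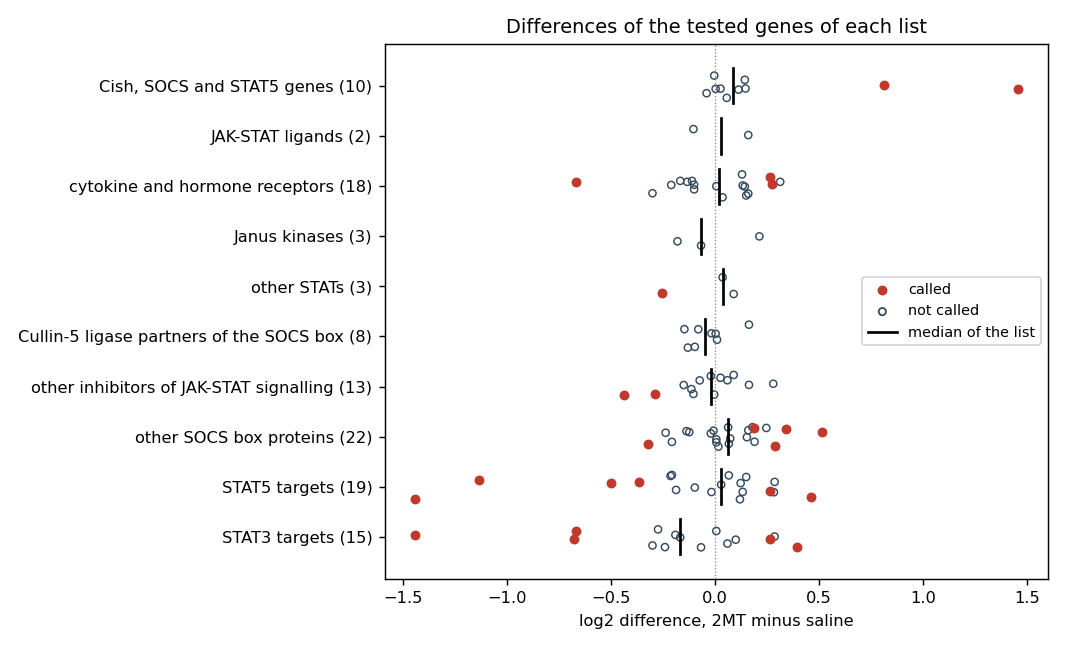
Log2 difference, 2MT minus saline, of every tested gene of the 10 genes described (top row) and of 9 pathway lists (the number tested in brackets), with called genes filled in red, uncalled genes open, and a black bar at the list's median. Cish and Socs2 are the 2 points farthest to the right, the points farthest to the left are Myc, whose 2MT signal was under the floor, and Bcl6, and list medians run from -0.17 for STAT3 targets to 0.08 for the genes described.

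Calls among cell type markers are given beside the 4.63% of all genes tested that were called. Of 8 cardiomyocyte, 7 fibroblast and 6 smooth muscle and pericyte markers tested 0 were called (limma, 1, 0 and 1 at an unadjusted p under 0.05), with the smallest p in Mb, Tcf21 and Kcnj8. Of 7 endothelial markers 1 fell, Pecam1 (by 0.33 ± 0.07, SE), while 4 of the 7 had a higher mean in 2MT. At an unadjusted p under 0.05 there were 4 of them, going both ways: besides Pecam1, Fabp4 differed by -0.14, Kdr by 0.24 and Emcn by 0.20, named after their values were seen and not called. Of 7 macrophage markers 1 fell, Lyve1 (by 0.34 ± 0.09), the only one at an unadjusted p under 0.05. Pecam1 was not called without 2MT 2 (0.094), 2MT 3 (0.11), saline 1 (0.094) or saline 2 (0.086), nor Lyve1 without 2MT 1 (0.068), 2MT 2 (0.15), 2MT 3 (0.12), saline 1 (0.091) or saline 3 (0.076). Mean endothelial signal was 7.90 to 8.06 in 2MT and 7.85 to 7.99 in saline. The part of these markers in the differences of Cish and Socs2 was not tested.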

How the data were processed

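The deposited table holds 1 value per probe set and array (28944 probe sets, 6 arrays), taken as log2 signal from its range of 0.51 to 13.5. The authors' deposited values come, per the submitters' processing notes, with the name MAS5 and no version or role; the normalization is not given in the sources used here. Array medians were 4.32 to 4.37, and no further scaling was applied. Detection calls were not used, so signal over background is unknown. Precision is limited by having 3 arrays a group.

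Probe sets were named through the platform annotation (21789 with 1 symbol, 1621 with several, 5534 with none here), and 21698 of them were found by Entrez ID in a RefSeq gene table. Probe sets with several symbols named no gene. Genes had to reach 4.345 on average, which left 10547 of 19938. The groups were tested in R 4.3.3 by limma 3.58.1 (a linear model per gene with eBayes and a variance trend, two-sided, Benjamini-Hochberg over all genes tested). An exact permutation test of 3 against 3 cannot go below 0.1. The fit was checked on simulated data. SEs of a gene's second probe set come from a fit over all probe sets. Figures used matplotlib 3.10.9 in Python 3.11.15.

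The genes described, the pathway and marker lists and the tests were chosen with earlier results of these data known. Named are all 10 genes, up to 4 called genes of each list (or the one with the smallest p), a fixed set of pathway genes, and the 4 genes most like Cish and Socs2. Prlr, Jak3 and 1 list of target genes, which the pathway totals include, are not reported here.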

Additional observations from a re-analysis of the deposited data

How the results depend on the processing

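Cish and Socs2 were called higher, and the other 8 genes uncalled, under all 19 alternatives in which each was tested (other scalings, dim filters, an offset of 16 before log2, probe set rules, variance models, thresholds of 0.1 and 0.01, and each array left out); Socs1 was not tested under the stricter dim filter, nor Socs6 with probe sets averaged. The difference of Cish ran from 1.24 to 1.58 and that of Socs2 from 0.69 to 0.91. The contrast between groups chose these genes, so their calls are a description of the fit and no separate evidence. Counts moved more. Without the variance trend 124 genes were called higher and 168 lower, and 4 and 6 of the pathway genes. Leaving out 1 array gave 101 to 312 genes higher and 153 to 334 lower, and 3 to 9 pathway genes higher and 6 to 11 lower. At an adjusted p under 0.1, 393 genes were higher, and at 0.01, 85 were higher and 134 lower, with 2 and 6 pathway genes. With every probe set tested on its own, 5 pathway genes were higher. Without the variance trend the calls of Ghr, Il10rb, Stat3, Ptpn11, Asb15, Asb2, Spsb1, Id1, Mcl1, Vegfa, Pecam1 and Lyve1 were lost. With no dim filter Spsb1 (limma adjusted p = 0.0529), Mcl1 (0.0532), Lyve1 (0.0594) and Asb2 (0.075) lost theirs. With every probe set on its own Asb18 (0.051), Pecam1 (0.0524), Ptpn11 (0.0537), Id1 (0.0582), Asb15 (0.0605), Spsb1 (0.0614), Il10rb (0.065), Mcl1 (0.0674), Asb2 (0.069) and Lyve1 (0.0828) did. The cause was not tested.

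The labels number the samples of both groups 1 to 3 without saying that equal numbers belong together. Deviations of equally numbered arrays correlated at 0.022 to 0.070. Each 2MT array correlated best with the saline array of its own number, though 2MT 2 was nearly level between saline 2 (0.0403) and saline 3 (0.0396). Saline 3 correlated better with 2MT 2 than with 2MT 3 (0.0223). These values do not settle whether the numbers pair the samples. With the replicate block 297 genes were called higher and 289 lower, with 10 and 11 pathway genes and Cish and Socs2 among the higher calls. Of the 4 genes most like Cish and the 4 most like Socs2, 0 remained when likeness was taken from deviations alone. No window of the 10 genes held the motif with 1 more spacer letter.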
